A study of Mus musculus with 12 samples.

Results

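The Tribbles pseudokinases and the C/EBP transcription factors were described here at the RNA level in 3T3-L1 adipocytes, a mouse cell line that turns from fibroblast-like preadipocytes into fat-storing cells. The 9 genes were chosen by name, as Trib1, Trib2, Trib3, Cebpa, Cebpb, Cebpd, Cebpg, Ddit3 and Rfwd2, out of a table of 39248 rows, and each had exactly 1 row. Trib1 was picked on the size of its rise in the comparison below, so its values are given as a description with no test. All cells had been differentiated and were electroporated 2 days later with 0.75 nmol of siRNA, so the controls carried an electroporation and an siRNA too. There were 6 control siRNA libraries and 6 Zfp407 siRNA libraries, 3 with each of 2 siRNAs against Zfp407, a zinc finger gene. The column names do not say which siRNA a knockdown library had received, so the 6 formed 1 arm. All libraries came from 1 cell line, and each was taken here to be its own electroporation. The p-values measure the spread between libraries, which in the knockdown arm includes any difference between its siRNAs.

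Tribbles proteins keep the fold of a protein kinase but have little or no catalytic activity, and act as scaffolds. TRIB1 and TRIB2 bind the ubiquitin ligase COP1, encoded by Rfwd2, and bring C/EBPα to it for degradation. C/EBP factors bind DNA as dimers through a basic region and a leucine zipper. C/EBPβ and C/EBPδ act early in fat cell formation and C/EBPα late, when it helps to hold adipocyte genes on. Since COP1 and its scaffolds act on protein stability, RNA levels show only the supply side of this system.

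The knockdown and the cell type were checked first. Zfp407 ran from 2.70 to 3.16 FPKM (mapped fragments scaled to transcript length and to library size) in control and from 1.604 to 2.13 FPKM in knockdown libraries, with a mean 36.9% lower and no overlap. The log2 fold change, here and below the difference in mean log2(FPKM + 1), was −0.46 (SE 0.06), with an adjusted p of 8.0e-05 from limma, and the two-sided exact permutation test gave p = 0.00216 (the smallest that 6 against 6 libraries can give). On the ratio of means the log2 change of Zfp407 was −0.67. The authors' deposited table lists it with −0.77 and a q-value of 0.0734, not marked as significant. All 10 adipocyte markers listed were detected above 1 FPKM on average, and their summed level ran from 19236 to 23253 FPKM in control and from 17844 to 22572 FPKM in knockdown libraries. By limma 4 of the 10 were lower (40%, beside 24.8% of all rows tested) and none was higher (2 were at an unadjusted p under 0.05). Of 10 preadipocyte or fibroblast markers, 9 passed the filter. By limma 2 of the 9 were lower in the knockdown arm (22.2%, beside 24.8% of all rows tested) and none was higher (beside 11.6%). None was higher at an unadjusted p under 0.05 either. The 10 markers summed to 3288 to 3741 FPKM in control and 2608 to 3510 FPKM in knockdown libraries. Of the 7 macrophage markers with a row, 6 had a mean under 1 FPKM, with Emr1 at 0 throughout, and so had 4 of 5 endothelial, 4 of 4 muscle and 5 of 5 hepatocyte markers. The macrophage marker that was tested, Cd14, did not pass (3.41 ± 0.293 and 3.25 ± 0.455 FPKM, SD, n = 6 each, limma adjusted p = 0.575). The endothelial marker that was tested, Vwf, was called higher (1.37 ± 0.143 and 1.77 ± 0.264 FPKM, SD, n = 6 each; log2 fold change 0.22, limma adjusted p = 0.0313). Mitochondrial transcripts took 22.7% to 25.3% of summed FPKM in control and 19.4% to 32.8% in knockdown libraries, highest in knockdown library 6. Rows with names of short RNAs took 36.8% to 39.3% in control (mean 37.97% ± 1.00, SD, n = 6) and 38.7% to 44.2% in knockdown libraries (mean 41.9% ± 1.92, SD, n = 6), and the part of this shift in the results was not tested. In bulk RNA, fewer cells of a type and less RNA per cell cannot be told apart.

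Apart from Trib1, 3 of the 8 genes passed the test between the arms. Cebpa was higher in the knockdown arm, and Rfwd2 and Trib2 were lower. Trib3, Cebpb, Cebpd, Cebpg and Ddit3 did not pass. Over all 14706 rows tested, 36.4% passed, 11.6% higher and 24.8% lower (1712 and 3648 rows, or 2307 and 3146 with each library centred on its median), and the arms did not overlap in 19.5%. Against a minimum fold of 1.2, which 5.82% of rows passed, none of the 8 genes passed in limma, and 2 had an unadjusted p under 0.05. The deposited values carry a term fixed for a whole arm: in low rows, what 1 read is worth differed between the arms in 325 of 1089 rows, and the 90th percentile of that difference over the 1089 rows was 0.22 on the log2 scale, beside 6 of 468 and 4 of 515 rows between odd and even libraries of the control and of the knockdown arm. Fold changes of about that size or below cannot be told apart from this term. That holds too for calls named below, those of Ddb1, Akt1, Akt2, Slc3a2, Eif2ak4, Nfil3, Stat5b, Cidec and Slc2a4. The calls of Vwf, Creb3l2, Srebf1 and Nfe2l1 lie at about that size. Some rows differ by more than the 90th percentile, and the term was measured only in rows with a mean under 0.5 FPKM. Its part in larger changes, such as those of Cebpa and Rfwd2, was not tested.

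**Figure D1:**
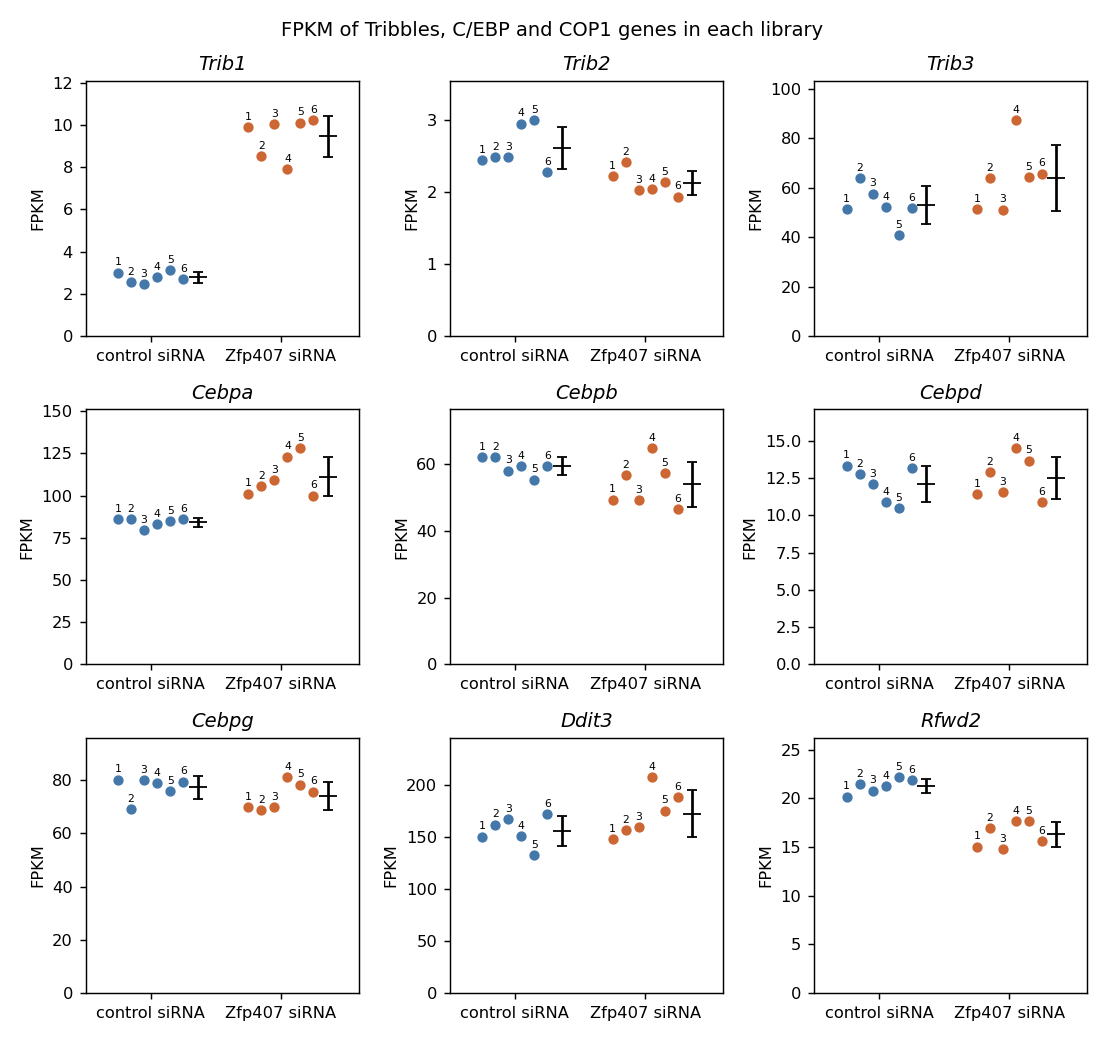
FPKM of the 9 genes in each library (numbered points) of the control siRNA and Zfp407 siRNA arms, with the mean and SD of 6 libraries to the right of each group and each axis starting at 0. Trib1 and Cebpa lie above every control library in all 6 knockdown libraries, Rfwd2 lies below, and the arms of the other 6 genes overlap.

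Among the scaffolds, Trib1 was the gene with the large rise that chose it. Control libraries 1 to 6 had 3.00, 2.56, 2.47, 2.81, 3.12 and 2.72 FPKM, whereas knockdown libraries 1 to 6 had 9.91, 8.53, 10.06, 7.93, 10.1 and 10.2 FPKM. Every knockdown library was more than double the highest control library, and knockdown libraries 2 and 4 were the lowest of their arm. The means were 2.78 ± 0.251 and 9.47 ± 0.984 FPKM (SD, n = 6 each), a ratio of 3.41. On the log2(FPKM + 1) scale, which understates changes of low genes, the difference was 1.47, and on the ratio of means 1.77. No other row lies at its locus (XLOC_011269, chromosome 15, 59648349 to 59656640 on GRCm38). For Trib1 the authors' deposited table gives 1.76 as log2 fold change. Among the 13002 rows with a single gene name and a control mean of at least 1 FPKM, it ranked 58th by rise, with AC109305.1 (1.47) just above it and Snord83b (1.45) just below.

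Trib2, which like TRIB1 can bring C/EBPα to COP1, overlapped Trib1 in level in control cells and fell (chromosome 12, 15791726 to 15816877). Values were 2.44, 2.48, 2.48, 2.95, 3.00 and 2.28 FPKM for controls 1 to 6 and 2.21, 2.41, 2.02, 2.04, 2.13 and 1.93 FPKM for knockdown libraries 1 to 6. The control mean was above all 6 knockdown libraries, and 5 of these were also under the lowest control; knockdown library 2 overlapped the controls. The mean was 18.4% lower, at 2.13 ± 0.169 FPKM beside 2.61 ± 0.295 in control (SD, n = 6 each), a log2 fold change of −0.20 (SE 0.06, adjusted p = 0.0224; exact permutation p = 0.00433, two-sided). On the ratio of means the log2 change was −0.29, beside 0.22 for the arm term, which was likewise taken without the added 1. The part of the arm term in this change was not tested. In limma the call was lost with each library centred on its median (−0.17, adjusted p = 0.0622) and without control library 4 (−0.18, adjusted p = 0.0514).

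Trib3, induced by ATF4 and CHOP in stressed cells, made up most of the Tribbles RNA in both arms (chromosome 2, 152337231 to 152344032). Controls 1 to 6 gave 51.4, 63.8, 57.7, 52.1, 40.9 and 51.8 FPKM, and knockdown libraries 1 to 6 gave 51.4, 63.9, 51.1, 87.5, 64.4 and 65.7 FPKM. The arms overlapped: 4 knockdown libraries lay above the highest control library, by little except in knockdown library 4, and 2 lay below the control mean. The log2 fold change was 0.26 with a 95% interval from −0.03 to 0.55 (adjusted p = 0.1495; exact permutation p = 0.106, two-sided). Without knockdown library 4 it was 0.16. Of the summed FPKM of the 3 Tribbles genes, Trib3 took 90.6% ± 2.01 (SD, n = 6) among controls and 84.2% ± 3.30 (SD, n = 6) after knockdown, and Trib1 4.87% ± 1.05 and 12.9% ± 2.88, the latter a consequence of the rise it was picked for.

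Rfwd2, the gene of the COP1 ligase that Tribbles proteins recruit, fell. Its 6 controls, in order of number, were 20.2, 21.4, 20.8, 21.3, 22.2 and 21.8 FPKM, and its 6 knockdown libraries were 15.0, 17.0, 14.8, 17.6, 17.7 and 15.6 FPKM. The arms did not overlap, and the highest knockdown library lay below the lowest control library. The means were 21.3 ± 0.730 and 16.3 ± 1.30 FPKM (SD, n = 6 each), a fall of 23.5% (log2 fold change −0.37, SE 0.05, adjusted p = 1.4e-04; exact permutation p = 0.00216, two-sided). The test of Rfwd2 against a minimum fold of 1.2 was not passed (adjusted p = 0.268). The authors' deposited table lists it with −0.38 on the log2 scale and a q-value of 0.416. Its locus (XLOC_000714, chromosome 1, 159232022 to 159347650) has 3 rows. One of these is Scarna3a, a small Cajal body RNA gene, which ran from 0 to 0.588 FPKM in control and from 7.11 to 23.3 FPKM in knockdown libraries. Since strand is not known, reads of rows that overlap cannot be told apart, here or at the loci of Cebpb and Ddit3. Whether Scarna3a bears on the value of Rfwd2 was not tested.

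Of the factors, Cebpa was the only one of the 5 tested that passed, in the direction of a rise. Controls 1 to 6 measured 86.0, 86.2, 79.3, 82.9, 85.1 and 85.8 FPKM, and knockdown libraries 1 to 6 measured 101, 106, 109, 123, 128 and 99.9 FPKM. Controls lay close together, all 6 knockdown libraries lay above them, and libraries 4 and 5 were the highest. The means were 84.2 ± 2.68 and 111 ± 11.7 FPKM (SD, n = 6 each), 31.95% higher in the knockdown arm (log2 fold change 0.39, SE 0.06, adjusted p = 4.5e-04; exact permutation p = 0.00216, two-sided). For Cebpa the test against a minimum fold of 1.2 was not passed (adjusted p = 0.304). In the authors' deposited table it has 0.38 on the log2 scale and a q-value of 0.171. The row (XLOC_030018, chromosome 7, 35119292 to 35121926) is alone at its locus.

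Cebpg, which encodes a short C/EBP protein that dimerises but lacks an activation domain of its own, is the neighbour of Cebpa on chromosome 7 (35046365 to 35056503) and is read from the opposite strand. It ran from 69.2 to 80.2 FPKM in control and from 68.6 to 81.2 FPKM in knockdown libraries, so the arms covered almost the same range. The log2 fold change of Cebpg was −0.06 with a 95% interval from −0.18 to 0.05 (adjusted p = 0.374; exact permutation p = 0.264, two-sided). The difference between the changes of Cebpa and Cebpg was not tested.

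The start regions of Cebpa, Cebpg and Rfwd2 (Cop1 in RefSeq) are shown because Cebpa and Rfwd2 were the tested genes whose arms did not overlap and Cebpg is the neighbour that did not pass. Each is the 150 bases before the gene's start on GRCm38.p6 from RefSeq, 5′ to 3′ on the gene's strand. Capitals mark TATAAA (the TATA box) or ATTGG, the reverse complement of CCAAT, a box bound by other factors despite the C/EBP name.
Cebpa, chr7:35119143-35119292, plus strand: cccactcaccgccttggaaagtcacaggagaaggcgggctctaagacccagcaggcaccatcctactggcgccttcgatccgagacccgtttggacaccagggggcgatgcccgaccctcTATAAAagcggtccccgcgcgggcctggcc
Cebpg, chr7:35056567-35056716, minus strand: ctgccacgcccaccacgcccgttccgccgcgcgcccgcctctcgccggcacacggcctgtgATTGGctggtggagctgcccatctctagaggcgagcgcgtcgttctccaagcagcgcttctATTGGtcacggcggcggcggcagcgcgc
Rfwd2, chr1:159232050-159232199, plus strand: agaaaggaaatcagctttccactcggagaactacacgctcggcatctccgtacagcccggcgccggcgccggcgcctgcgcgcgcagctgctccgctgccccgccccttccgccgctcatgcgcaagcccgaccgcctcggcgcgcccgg

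The starts looked different from one another. The TATAAA of Cebpa begins 30 bases before its start, the ATTGG matches of Cebpg 89 and 28 bases before its start, and the Rfwd2 window holds neither. Over windows of 250 bases before to 50 after a start, searched on both strands, 13.6% of 32851 RefSeq promoters hold TATAAA and 37.4% hold CCAAT. In these windows TATAAA was also in Trib3, from 166 bases before the start, and in Cebpb, from base 22 after it. ATTGG was also in Ddit3, from 77 bases before the start, and Trib2 held neither. These 2 motifs were chosen after the sequences had been read. The C/EBP motifs TTGCGCAA (in 0.183% of promoters) and TTGCNNAA (10.8%), of which the first is a special case of the second, and TGACGTCA (1.79%), the cyclic AMP response element, were in none of the 7 promoters of these genes that the table holds. TGATGNAA (3.97%), a composite site of C/EBP and ATF factors, was found once, in Trib3, as TTACATCA on the reverse strand from base 15 after the start. Trib1 and Cebpd have no entry in the table. A match is a description of letters and shows no binding.

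Cebpb and Cebpd, the early factors of adipogenesis, did not pass. For Cebpb, controls 1 to 6 showed 62.1, 62.2, 58.0, 59.4, 55.3 and 59.3 FPKM, and knockdown libraries 1 to 6 showed 49.3, 56.6, 49.2, 64.7, 57.2 and 46.5 FPKM. Of the knockdown libraries 3 lay below the lowest control library, while library 4 lay above the highest. The log2 fold change was −0.15 with a 95% interval from −0.30 to 0.01 (adjusted p = 0.141; exact permutation p = 0.0952, two-sided). Without knockdown library 4 it was −0.20 and passed (adjusted p = 0.0213), so this 1 library decides the call. The Cebpb row is 1 of 7 at a locus (chromosome 2, 167553313 to 167729172) that also holds Tmem189 and Ube2v1. It begins well before the RefSeq promoter window of Cebpb (167688665 to 167688964), so its FPKM may hold reads from outside the gene. The row AL589870.2 at this locus ran from 3.90 to 53.4 FPKM in control and from 8.20 to 105 FPKM in knockdown libraries. The part of such reads in the Cebpb values was not tested. Cebpd (chromosome 16, 15887285 to 15888466) ran from 10.5 to 13.3 FPKM in control and from 10.9 to 14.5 FPKM in knockdown libraries, with a log2 fold change of 0.04 (95% interval −0.13 to 0.21; adjusted p = 0.724; exact permutation p = 0.632, two-sided). Its sign turned without knockdown library 4 (−0.0016).

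Ddit3 encodes CHOP, a stress-induced C/EBP partner that keeps other C/EBP factors from their usual sites. It was the most abundant of the 9 genes, with 150.5, 162, 167, 151, 133 and 172 FPKM in controls 1 to 6 and with 148, 156, 159, 208, 176 and 189 FPKM in knockdown libraries 1 to 6. The 3 highest values were those of knockdown libraries 4, 6 and 5, and the other 3 knockdown libraries lay within the control range. The log2 fold change was 0.14 with a 95% interval from −0.05 to 0.34 (adjusted p = 0.232; exact permutation p = 0.162, two-sided). The Ddit3 row shares its locus (chromosome 10, 127289695 to 127311786) with Mars, an aminoacyl-tRNA synthetase gene, at 42.2 ± 3.39 and 41.0 ± 5.22 FPKM (SD, n = 6 each). The Ddit3 row also begins before the RefSeq promoter window of Ddit3 (127290543 to 127290842), so its FPKM may hold reads from outside the gene. The part of such reads in the Ddit3 values was not tested.

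**Figure D2:**
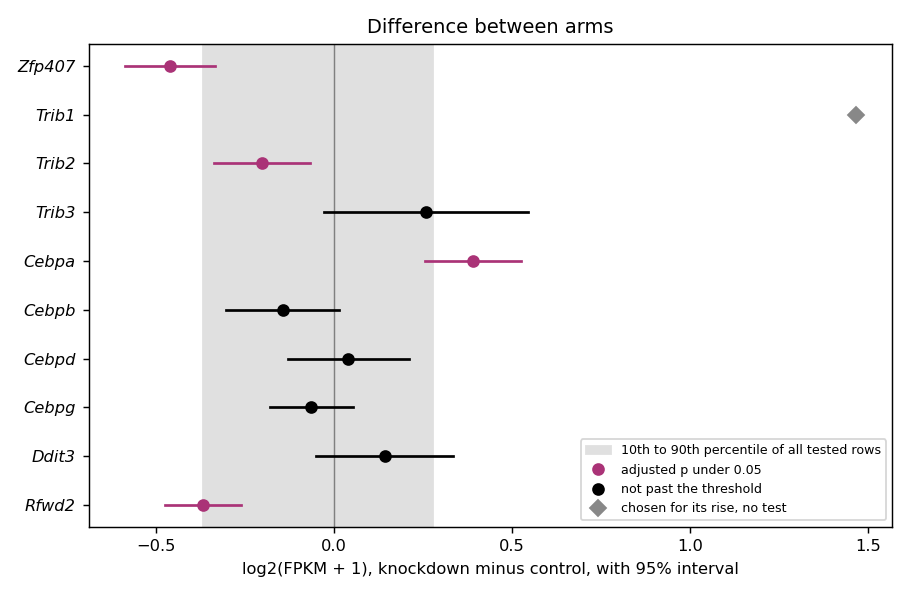
Difference between arms in log2(FPKM + 1) for Zfp407 and the 9 genes, with the 95% interval of the limma fit (6 libraries per arm), over a band from the 10th to the 90th percentile of all 14706 tested rows (−0.37 to 0.28). Cebpa at 0.39 lies above the band and Rfwd2 at −0.37 at its lower edge; Trib1 at 1.47 is drawn without an interval because it was chosen for its rise.

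Within the control arm, and on the FPKM scale that is per length, the order of levels was Ddit3 (156 FPKM on average), Cebpa (84.2), Cebpg (77.3), Cebpb (59.4), Trib3 (52.9), Rfwd2 (21.3), Cebpd (12.1), Trib1 (2.78) and Trib2 (2.61). The places of Cebpb and Ddit3, and their shares below, are those of rows that begin before their RefSeq promoter windows. Cebpa and Cebpg overlapped, as did Cebpb and Trib3, and Trib1 and Trib2. Every other pair of neighbours stood apart in all 6 control libraries. Of the summed FPKM of the 5 C/EBP genes, Cebpa took 21.7% ± 1.22 among controls and 26.2% ± 1.64 after knockdown, and Cebpb 15.3% ± 0.593 and 12.7% ± 1.03 (SD, n = 6 each). Ddit3 took 40.0% ± 2.14 and 40.6% ± 2.41.

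Between libraries of 1 arm, several of these genes stood high or low in the same library. Knockdown library 4 held the highest value of its arm for 5 of the 9 genes, Trib3, Cebpb, Cebpd, Cebpg and Ddit3, and the lowest for Trib1. Knockdown library 6 held the lowest for Trib2, Cebpa, Cebpb and Cebpd. Among the controls, library 5 held the lowest Trib3, Cebpb, Cebpd and Ddit3 and the highest Trib1, Trib2 and Rfwd2. Trib3 spread most, from −0.29 to 0.47 around the mean of its arm on the log2 scale in knockdown libraries. The coefficient of variation of Cebpa was 3.18% in control and 10.5% in knockdown libraries, and that of Rfwd2 3.43% and 8.01%.

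**Figure D3:**
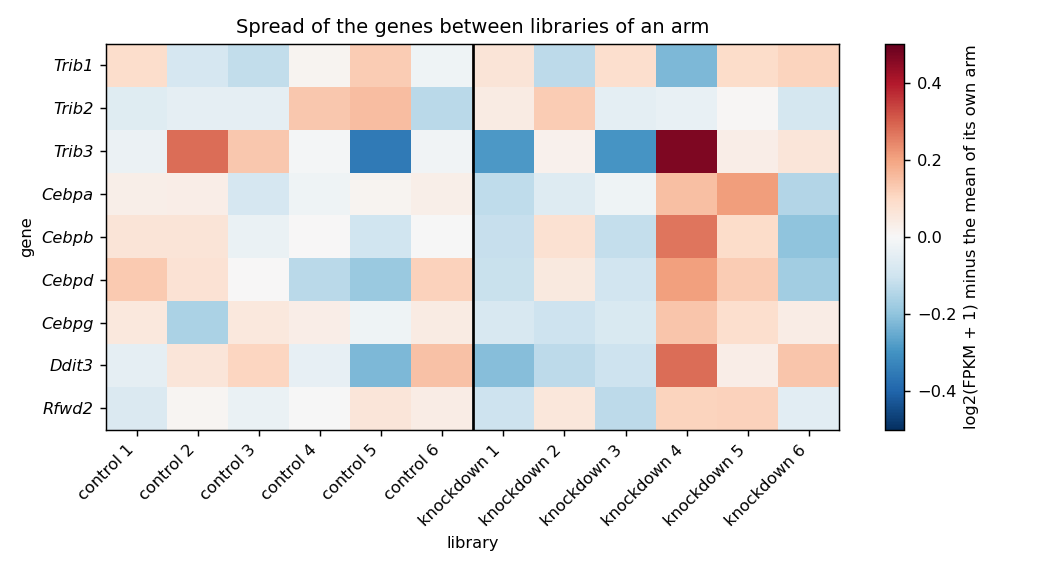
Each gene's log2(FPKM + 1) in each library minus the mean of its own arm, from blue (lower) to red (higher), with a line between the control and knockdown libraries. Knockdown library 4 is red for Trib3, Cebpb, Cebpd, Cebpg and Ddit3 and blue for Trib1 (−0.22), and control library 5 is blue for Trib3 (−0.35) and Ddit3 (−0.23).

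The rows whose pattern over the 12 libraries was most like that of Trib1, by Pearson's correlation of log2(FPKM + 1), were Gm14328, Gm13131, AC113178.1, AC126694.1 and SNORD101, with r from 0.991 to 0.992. Their control means ran from 0 to 0.324 FPKM, so this likeness is mostly the step between the arms that Trib1 was picked for. Those most like Cebpa were Trmt112, Puf60, Chst1, Dnajc16 and Heatr7b1, with r from 0.958 to 0.966 over the same 12 libraries. All 5 had higher means in the knockdown arm, from a log2 difference of 0.20 for Puf60 to 0.63 for Chst1. That direction follows from the choice of these rows, since the arms of Cebpa did not overlap. The libraries share depth and composition, and the correlations are descriptions.

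Around COP1 and Tribbles, the share of partner genes called was near that of all rows. Of 10 tested genes for the COP1 ligase complex and for kinases that Tribbles proteins bind, 3 fell, 1 rose and 6 did not pass (4 called, beside 36.4% of all rows), with a median log2 fold change of −0.10 beside −0.05 over all tested rows. Cul4b, a cullin of COP1 ligases, fell, with 37.2 ± 1.42 FPKM in control and 31.2 ± 2.27 FPKM after knockdown (SD, n = 6; log2 fold change −0.25, adjusted p = 0.00170). Ddb1, the adaptor between the cullin and its receptors, fell with −0.20, and Akt2, the main insulin-responsive AKT of fat, with −0.14. The call of Akt1 (log2 fold change 0.10, adjusted p = 0.0438) was lost in 10 of the 12 fits that leave out 1 library, with adjusted p from 0.0541 to 0.0902 in those 10. Neither Rbx1, the RING subunit, nor the MAP kinase kinase genes Map2k1 and Map2k4, named after their values were seen, passed.

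Of 10 tested genes whose products have been reported as COP1 substrates, 3 fell, 1 rose and 6 did not pass (median log2 fold change 0.00). That is 4 called of 10, close to the 36.4% of all rows. Pnpla2, the lipase that starts triglyceride breakdown, fell, with 597 ± 18.9 FPKM in control and 341 ± 109 FPKM after knockdown (SD, n = 6; log2 fold change −0.87, adjusted p = 0.00216) and was the only one to pass against a minimum fold of 1.2. Trp53, the tumour suppressor gene, rose from 27.4 ± 0.740 to 35.3 ± 3.51 FPKM (log2 fold change 0.35). Foxo1 fell with −0.24, and Acaca, an acetyl-CoA carboxylase gene whose row the authors marked as a failed test, had −0.59.

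Among genes that C/EBP factors bind in adipocytes, more were called lower than higher, while Cebpa itself was higher. This list, like the others, was chosen with earlier results of these data known, so its share is a description. Of 25 tested in limma, 13 (52%, beside 24.8% of all rows) fell, none rose (beside 11.6% of all rows; 2 were higher at an unadjusted p under 0.05) and 12 did not pass, with a median log2 fold change of −0.19 beside −0.05 over all rows. Scd1, which desaturates fatty acids, fell, with 2972 ± 207 FPKM in control and 1499 ± 332 FPKM after knockdown (SD, n = 6; log2 fold change −1.01, adjusted p = 8.6e-05), and Lep, the hormone leptin, from 9.80 ± 0.993 to 4.61 ± 1.12 FPKM (log2 fold change −0.96). Of the 10 adipocyte markers 4 were also lower, Adipoq, Cidec, Cfd and Lep, all of which are in this list, and the part of adipocyte content in its values was not tested. Agt, the precursor of angiotensin, and Cfd, adipsin, fell with −0.54 and −0.32. Adipoq, Slc2a4, Irs1 and Fasn were also among the 13, and Fabp4, Pparg, Insr and Lpl among the 12; these 8 were named after their values were seen. With each library centred on its median 11 fell and 1 rose, beside 3146 lower and 2307 higher of all 14706 rows. Without knockdown library 4, 15 fell and 1 rose (3882 lower and 1643 higher of 14727 rows). Without knockdown library 6, 12 fell and 2 rose (3383 lower and 1661 higher of 14656 rows). Against a minimum fold of 1.2, 3 of the 13 passed, namely Scd1, Lep and Pnpla2, which is also in the list of COP1 substrates. PPARG and other factors act on many of these genes too.

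**Figure D4:**
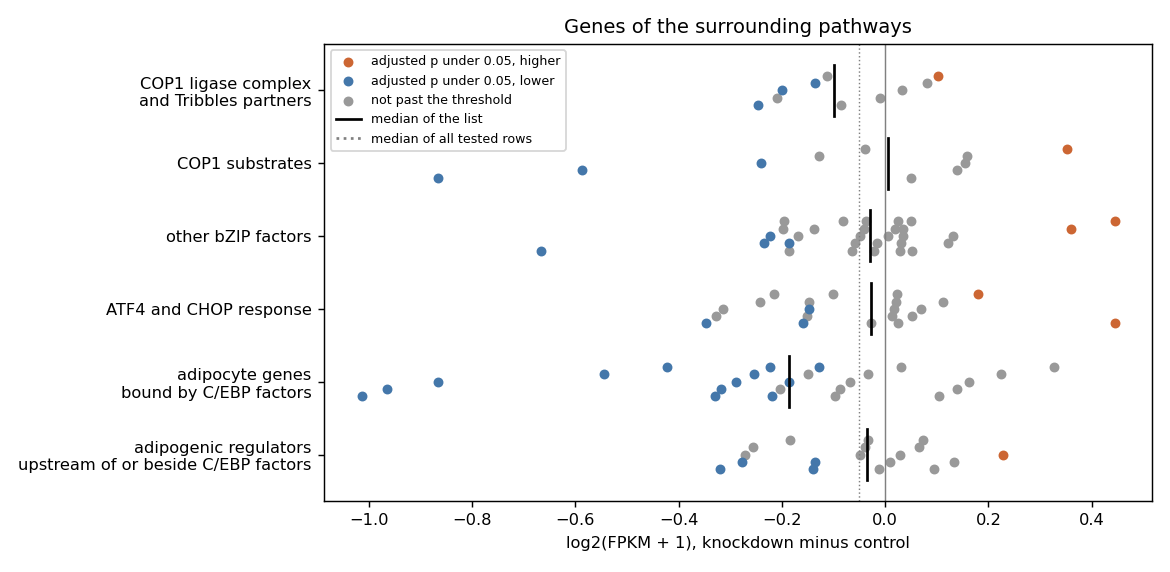
Log2 fold change of every tested gene in 6 lists around the Tribbles and C/EBP genes, with genes called lower in blue, called higher in orange and not past the threshold in grey; black bars are list medians and the dotted line is the median of all tested rows (−0.05). The genes bound by C/EBP factors have the lowest list median (−0.19) and no orange point in this fit.

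Most genes of the ATF4 and CHOP response, the stress signals that induce Ddit3 and Trib3, did not pass. Among 21 tested genes 3 fell, 2 rose and the other 16 missed the threshold (median log2 fold change −0.03), 23.8% called beside 36.4% of all rows. Atf3, a stress-induced factor, rose, with 2.45 ± 0.535 FPKM in control and 3.70 ± 0.774 FPKM after knockdown (SD, n = 6; log2 fold change 0.45, adjusted p = 0.0185), and Slc3a2, an amino acid transporter subunit, with 0.18. Ddit4, an inhibitor of mTORC1, fell with −0.35 and Eif2ak4, the amino acid sensor GCN2, with −0.15. Atf4 itself, named after its value was seen, stood at 148 ± 4.73 and 151 ± 16.8 FPKM (adjusted p = 0.800). Without knockdown library 4, in which Ddit3 and Trib3 were highest, 6 of the 21 fell and 2 rose. In that fit 3882 of all 14727 rows tested were lower and 1643 higher.

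Among 30 other tested bZIP genes, the wider family of the C/EBP factors, 4 fell, 2 rose and 24 did not pass (median log2 fold change −0.03; 20% called, beside 36.4% of all rows). Atf6, a sensor of protein folding in the endoplasmic reticulum, fell, with 9.74 ± 0.328 FPKM in control and 5.77 ± 0.422 FPKM after knockdown (SD, n = 6; log2 fold change −0.67, adjusted p = 4.4e-07), with no overlap, and passed against a minimum fold of 1.2. Creb3l2, Nfe2l1 and Nfil3 fell with −0.22, −0.23 and −0.19, and the 2 that rose were Atf3 and Dbp, a clock-controlled factor (0.36), the latter named after its value was seen. The authors marked the Nfe2l1 row as a failed test. Cebpe, the C/EBP factor of granulocytes, had a mean under 1 FPKM and was not tested.

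Of 18 tested regulators that act before or beside C/EBP factors in adipogenesis, 4 fell, 1 rose and 13 did not pass (median log2 fold change −0.04; 27.8% called, beside 36.4% of all rows). Klf15 and Ebf1, activators of fat cell genes, fell with log2 fold changes of −0.32 (adjusted p = 6.7e-04) and −0.28. Stat5b had −0.14 and Srebf1, which drives lipid synthesis, 0.23, with adjusted p = 0.0396 and adjusted p = 0.0455; of 19 alternatives, 11 lost the call of Stat5b and 10 that of Srebf1. Between 2 and 5 of the 18 passed in the fits that leave out 1 library. Klf4, Egr2, Nr3c1 and Stat3, which switch on C/EBP genes early in adipogenesis, were tested and did not pass; they were named after their values were seen.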

How the data were processed

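RNA from 12 libraries was sequenced by the authors, who deposited 1 table of FPKM values per library and, per the file headers, arm FPKM, a score column of log2 fold changes (with the largest machine number where a ratio is infinite), a test statistic, p-values and q-values. Cufflinks 2.0.2, SAMtools 0.1.18.0, TopHat2 2.0.5 and Bowtie2 2.0.0.7 appear in the submitters' processing notes. The strandedness, the build and the annotation were not given in the sources used here. On GRCm38, 99.6% of rows with a protein-coding symbol overlapped that gene in GENCODE M21. Sequencing depth is unknown, since FPKM holds no totals; relative depth, from low rows (mean under 0.5 FPKM, whole multiples within 2%), ran from 0.880 to 1.15 of control library 1. The worth of 1 read was compared on the same rows, leaving out differences of 0.5 or more on the log2 scale and counting those above 0.01.

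Rows with a mean of at least 1 FPKM entered the test as log2(FPKM + 1), in R 4.3.3 with limma 3.58.1 (intensity trend, two-sided, Benjamini-Hochberg over all tested rows, threshold 0.05), which was tested on simulated data. Exact permutation tests used scipy 1.17.1 in Python 3.11.15. No 2 libraries of an arm held identical values. Named were all 9 genes and Zfp407, the 4 called list genes with the smallest adjusted p, and the 5 rows most correlated with Trib1 and with Cebpa; others are marked in the text. Genes and lists were chosen with earlier results of these data known. Promoters came from RefSeq (GRCm38.p6); protein sequences were not used here. Alternatives changed the pseudocount, filter, scaling, trend, minimum fold, test and libraries.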

Additional observations from a re-analysis of the deposited data

Results flagged for a closer look

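Outlying libraries were looked for in the 9 genes, Zfp407, the list genes named by rule and the rows most correlated with Trib1 and with Cebpa. Rows at the loci of the 9 genes with a mean of at least 1 FPKM were added. The other genes named in the text were not examined. In the 93 arms of 6 libraries examined, 6 held a library whose gap to its nearest neighbour was large for the range of its arm. Chance flags about 1 in 20. None of the 18 arms of the 9 genes was among them. In knockdown library 6, Trp53 was low at 28.6 FPKM and Stat5b was low at 22.9 FPKM. Knockdown library 4 held the highest Acaca, at 46.4 FPKM, and knockdown library 2 the lowest Srebf1, at 184 FPKM. AL589870.2, at the locus of Cebpb, was lowest in knockdown library 5 at 8.20 FPKM. SNORD101 was highest in control library 4 among the controls, at 1.57 FPKM.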

How the results depend on the processing

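The rise of Cebpa and the fall of Rfwd2 kept their direction and call under every alternative run except the minimum fold of 1.2, where neither passed at 0.39 and −0.37. Trib2 lost its call there (−0.20) and with centred libraries (−0.17), and ran from −0.23 to −0.17 with 1 library left out. Leaving out 1 library gave −0.20 to −0.11 for Cebpb and −0.0016 to 0.074 for Cebpd, both ends that changed a call or sign being those without knockdown library 4. Trib1 moved to 1.73 with a pseudocount of 0.1. Genes other than Trib1 called lower numbered 2, but 1 with centred libraries, 1 with the filter at 5 FPKM (Trib2 is then untested), and 1 to 3 with 1 library left out. The minimum fold left 0 higher and 0 lower of these, 313 higher and 543 lower rows, and 0 genes of the COP1 complex list, 1 of its substrates, 1 of the other bZIP factors, 0 of the ATF4 and CHOP response, 3 of those bound by C/EBP factors and 0 of the adipogenic regulators. The last list had 2 without a filter, 3 after quantile normalization and 2 to 5 with 1 library left out, and the ATF4 and CHOP list 4 to 8. For the 24 list genes named by rule, 405 of 455 alternatives kept the call and none turned the sign; Akt1 and Stat5b each lost it in 11 of 19 and Srebf1 in 10 of 19. Causes were not tested. No paired analysis was possible because the knockdown columns are not tied to the sample numbers in the titles, and fits per siRNA were not run for the same reason. Summing rows per gene changed nothing, as each of the 9 genes has 1 row. Depth in reads is unknown, so no counting error could be set beside the FPKM of Trib1 or Trib2.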
